A study of Mus musculus with 14 samples.

Results

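Usp18, Herc6, Trim25, Trim30a, Dtx3l, Parp9, Parp10, Parp12, Parp14 and Rnf213 encode enzymes or, as for Parp9, a member of an enzyme family. These enzymes attach ubiquitin, the ubiquitin-like protein ISG15 or ADP-ribose to other proteins, or take ISG15 off again. All 10 are known as interferon-induced genes. They were chosen by symbol, with earlier results of these data known. Counts over the 10 set beside all genes are therefore a description and not a test of the set. A gene was taken to be measured where the array had a row annotated to exactly 1 gene symbol, and the row with the highest mean stood for the gene. All 10 had such a row, among 19938 genes measured in this way. Isg15 was not analysed here, since it had no row with a single symbol.

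RNA was taken from microglia, the resident macrophages of the brain, sorted from the cortex on the operated side, and was hybridised to Affymetrix Mouse Gene 1.0 ST arrays. The mice were C57BL/6J males of 12 to 14 weeks, either TLR4-/- or wild type. They had a filament occlusion of the middle cerebral artery for 15 min and then 72 h of reperfusion (I/R), or sham surgery, under isoflurane in every group. Toll-like receptor 4 (TLR4) senses bacterial lipopolysaccharide and molecules from damaged tissue, and the study compared I/R with sham surgery in both genotypes. Of 14 arrays, 3 held TLR4-/- I/R samples (lettered B, C and D), 3 TLR4-/- sham samples (A, B and D), 4 wild-type I/R samples (A to D) and 4 wild-type sham samples (A to D). The sources used here do not give how the TLR4-/- allele was made, whether it was confined to a cell type or which markers served for the sort. They do not explain the letters IPC in titles of the I/R samples, which were grouped by treatment. No label states that the samples are from separate animals. The p-values therefore rest on the spread among arrays, part of which may be technical.

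Type I interferons act through the receptor chains IFNAR1 and IFNAR2 and the kinases JAK1 and TYK2 on a complex that includes STAT2 and IRF9 and that switches on a large set of antiviral genes. Among its targets are ISG15 and its own conjugation machinery, in which UBA7 activates ISG15, UBE2L6 carries it, HERC ligases attach it and USP18 removes it. USP18 also binds IFNAR2 and dampens the signal, and several PARP enzymes, which transfer ADP-ribose from NAD+, belong to the same set of targets.

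All values are RMA signals on the log2 scale, so a difference of 1 is a 2-fold change, and levels of different genes are not compared. Array medians lay between 4.93 and 5.12. The 95th percentile of 1027 olfactory receptor genes, 4.73, stood in for background, and each of the 10 genes lay above it on all 14 arrays. The Tlr4 row gave signal in both genotypes, from 7.62 to 8.47 on the TLR4-/- arrays and from 8.14 to 8.92 on the wild-type arrays. TLR4-/- minus wild type was -0.28 after I/R (limma adjusted p = 0.634) and -0.46 after sham surgery (limma adjusted p = 0.92). Where its probes lie relative to the mutation is not given, so this row checks no label. By mean correlation over all genes, 7 of the 14 arrays were closer to the other genotype after the same surgery than to their own group, namely all 3 TLR4-/- I/R arrays and all 4 wild-type sham arrays. The gap was widest, 0.0049, for wild-type sham array C (0.9894 with the TLR4-/- sham arrays, 0.9845 with its own group), followed by TLR4-/- I/R array D (0.9908 with the wild-type I/R arrays, 0.9874 with its own group). With these 2 arrays left out, 8 of the 10 genes still passed the test of I/R against sham in each genotype. Among all genes 1596 then passed in TLR4-/- and 1654 in wild type. The microglial genes P2ry12 and Tmem119 read from 10.76 to 11.47 on every array.

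After I/R, 8 of the 10 genes rose in TLR4-/- microglia and 8 rose in wild-type microglia, at a limma adjusted p under 0.05 over all genes, and none fell in either. The same 8 genes passed in both genotypes, and Dtx3l and Parp10 passed in neither. Among all genes, 5.04% rose and 3.13% fell in TLR4-/- (8.17% together), and 6.15% rose and 3.63% fell in wild type (9.78% together). On 9 of the 10, every I/R array lay above every sham array in TLR4-/- and likewise in wild type, with Parp10 the exception, against 11.1% of all genes in TLR4-/- and 7.78% in wild type. The median change over the 10 genes was 0.92 in TLR4-/- and 0.70 in wild type, against -0.03 and -0.06 over all genes. At 2-fold or more, Usp18, Trim25, Parp12 and Rnf213 (4 of the 10) rose in TLR4-/- (2.3% of all genes), and Usp18, Trim25 and Rnf213 (3 of the 10) in wild type (2.36% of all genes). In bulk samples such as these, more cells of a type and more RNA per cell cannot be told apart.

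**Figure D1:**
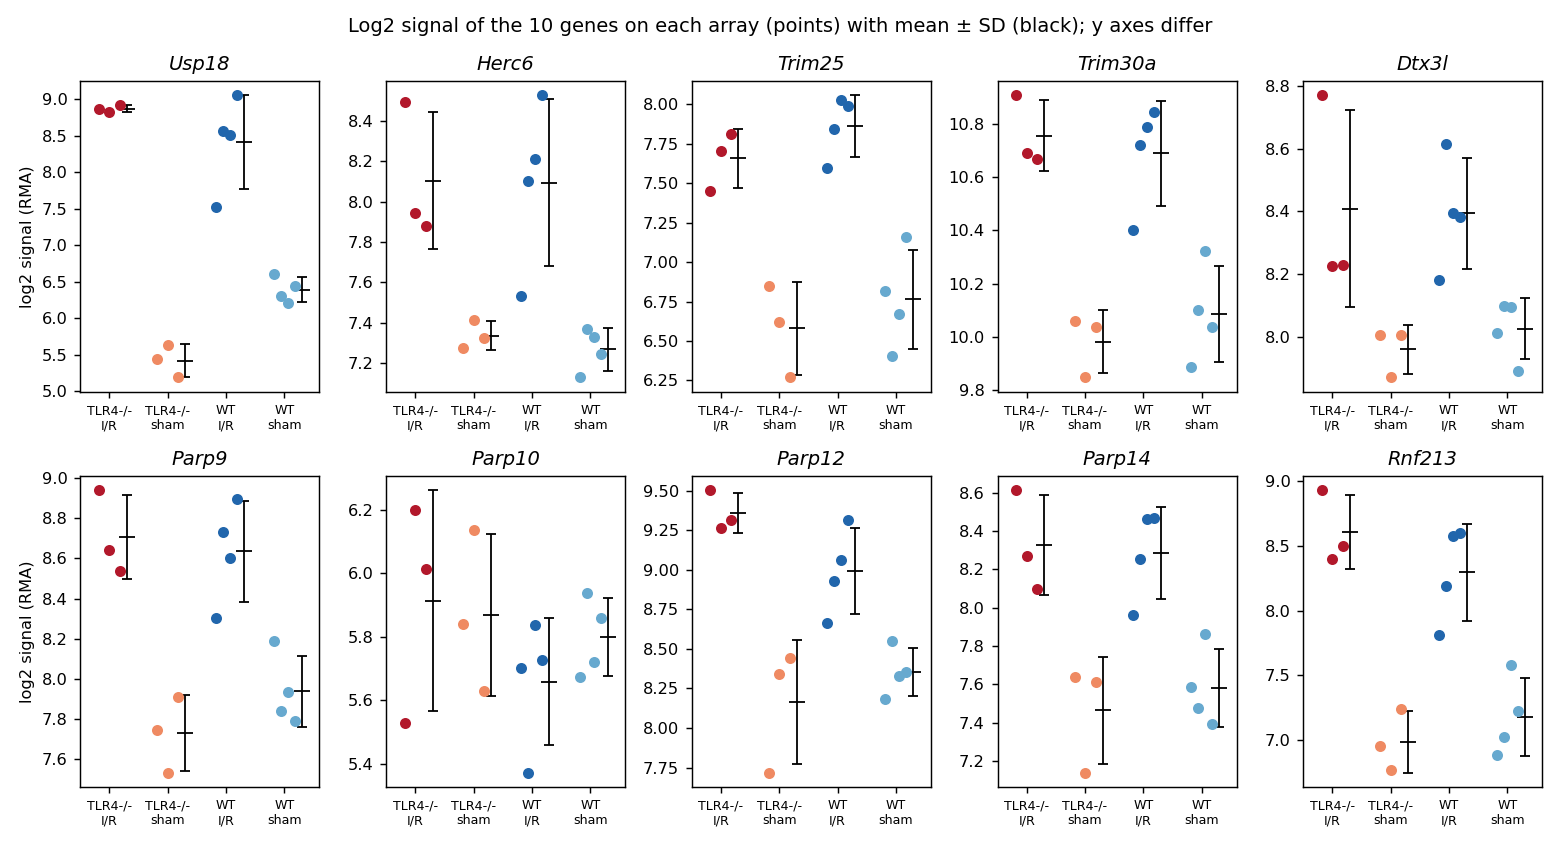
Log2 signal (vertical axis, 1 panel per gene) of the 10 genes on each array, by group along the horizontal axis; coloured points are arrays and black bars are group means ± SD, and the vertical axes differ. In every panel but that of Parp10 the I/R arrays stand above the sham arrays of their genotype.

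Usp18, the protease that takes ISG15 off its targets, had the largest change of the 10 in both genotypes. It read 8.87, 8.82 and 8.92 on TLR4-/- I/R arrays B, C and D, against 5.44, 5.63 and 5.19 on TLR4-/- sham arrays A, B and D. The wild-type readings were 7.53, 8.57, 8.52 and 9.06 on I/R arrays A to D, against 6.61, 6.31, 6.21 and 6.44 on sham arrays A to D. The I/R and sham arrays were far apart in both genotypes, the 3 TLR4-/- I/R arrays nearly coincided, and wild-type I/R array A lay well below the other wild-type I/R arrays. The change was 3.45 ± 0.26 (SE), or 10.9-fold, in TLR4-/- (limma adjusted p = 2.18e-07) and 2.02 ± 0.23, or 4.06-fold, in wild type (limma adjusted p = 9.52e-06). Ordered by change over 19938 genes, Usp18 was number 21 in TLR4-/- and number 159 in wild type.

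Herc6 encodes the HERC ligase that attaches ISG15 in the mouse. It read 8.49, 7.94 and 7.88 on TLR4-/- I/R arrays B, C and D, against 7.27, 7.41 and 7.32 on TLR4-/- sham arrays A, B and D. Its wild-type signal was 7.53, 8.10, 8.21 and 8.53 on the I/R arrays, against 7.13, 7.37, 7.33 and 7.25 on the sham arrays. The I/R arrays lay above the sham arrays in both genotypes, with TLR4-/- array B high and wild-type array A low among the I/R arrays. The change was 0.77 ± 0.20 (1.70-fold, limma adjusted p = 0.0263) in TLR4-/- and 0.83 ± 0.18 (1.77-fold, limma adjusted p = 0.0052) in wild type. The TLR4-/- call was lost without I/R array B (0.57, adjusted p = 0.113) and without sham array A (0.73, adjusted p = 0.093), B (0.80, adjusted p = 0.0538) or D (0.76, adjusted p = 0.07).

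The 3 partners of this cycle that were measured are Uba7, Ube2l6 and Arih1, the last a ligase reported to work with UBE2L6. In each genotype 1 of the 3 rose and none fell, while 5.04% of all genes rose in TLR4-/- and 6.15% in wild type. Their median change was -0.04 in both, which is the value of Uba7. Ube2l6, the carrier enzyme of ISG15, read 6.84, 7.40 and 7.36 on the TLR4-/- I/R arrays, against 5.37, 5.08 and 5.36 on the TLR4-/- sham arrays. It read 6.27, 7.01, 7.07 and 7.18 on the wild-type I/R arrays, against 5.55, 5.89, 5.10 and 6.18 on the wild-type sham arrays. The groups did not overlap in either genotype, and the change was 1.93 ± 0.26 (3.81-fold, limma adjusted p = 0.000107) in TLR4-/- and 1.20 ± 0.22 (2.30-fold, limma adjusted p = 0.00184) in wild type. Uba7, the activating enzyme, did not pass the test, at -0.04 in TLR4-/- (limma adjusted p = 0.948) and -0.04 in wild type (limma adjusted p = 0.906).

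Trim25 is a ubiquitin ligase best known for acting on the viral RNA sensor RIG-I, and it can also attach ISG15. It read 7.45, 7.71 and 7.81 on the TLR4-/- I/R arrays, against 6.85, 6.62 and 6.27 on the TLR4-/- sham arrays. In wild type the I/R arrays read 7.59, 7.84, 8.03 and 7.99, against 6.82, 6.41, 6.67 and 7.16 on the sham arrays. The I/R arrays were above the sham arrays in both genotypes, and the sizes of the change were close to each other. It was 1.08 ± 0.19 (2.11-fold, limma adjusted p = 0.00139) in TLR4-/- and 1.10 ± 0.16 (2.14-fold, limma adjusted p = 0.000224) in wild type.

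Rnf213 encodes a very large protein with both an ATPase and a ubiquitin ligase activity, and its human form is known for Moyamoya disease, a narrowing of the brain's arteries. It read 8.93, 8.39 and 8.50 on the TLR4-/- I/R arrays, against 6.95, 6.77 and 7.24 on the TLR4-/- sham arrays. In wild type it read 7.81, 8.19, 8.58 and 8.60 on the I/R arrays, against 6.89, 7.02, 7.58 and 7.22 on the sham arrays. No I/R array overlapped a sham array of its genotype, although wild-type I/R array A and wild-type sham array C came close. The change was 1.62 ± 0.22 (3.07-fold, limma adjusted p = 0.000129) in TLR4-/- and 1.11 ± 0.19 (2.17-fold, limma adjusted p = 0.000888) in wild type. Of the 10 genes it alone had a second row, which rose by 1.20 ± 0.28 in TLR4-/- (limma adjusted p = 0.0134) and by 1.37 ± 0.25 in wild type (limma adjusted p = 0.00132). The rows gave the larger change to different genotypes.

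Trim30a encodes a ubiquitin ligase of mouse macrophages that restrains Toll-like receptor signalling to NF-kB. It read 10.91, 10.69 and 10.67 on the TLR4-/- I/R arrays, against 10.06, 9.85 and 10.04 on the TLR4-/- sham arrays. The wild-type readings were 10.40, 10.72, 10.79 and 10.85 on the I/R arrays, against 9.89, 10.10, 10.32 and 10.04 on the sham arrays. The groups did not overlap in TLR4-/-, and in wild type they were parted only narrowly, by I/R array A and sham array C. The change was 0.78 ± 0.14 (1.71-fold, limma adjusted p = 0.00208) in TLR4-/- and 0.60 ± 0.12 (1.52-fold, limma adjusted p = 0.00384) in wild type.

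Trim30a is flanked by close copies, Trim30b, Trim30c and Trim30d, on chromosome 7, and how far its array probes tell these apart is not given. The signal is therefore uncertain as to which copy it came from. The Trim30d row did not pass the test, at 0.31 in TLR4-/- (limma adjusted p = 0.386) and 0.22 in wild type (limma adjusted p = 0.439). RefSeq promoter windows (GRCm38.p6, 250 bases before to 50 after a start site) were found for 6 of the 10 genes, Parp12, Herc6, Trim30a, Trim25, Rnf213 and Dtx3l, and Trim30a had 2 of the 7 windows. They were searched on both strands for the core of the interferon-stimulated response element, which is GAAA, then 2 bases of any kind, then GAAA, and for the gamma-activated site, TTCNNNGAA. The patterns have the letters GAA in common, and each was searched on its own. Only Trim30a held the first, in both its windows, and none of the 6 held the second. Over all 32851 windows the shares were 3.44% and 8.3%, and counted by gene they were 3.99% and 9.55% of 27025 genes. A match is a description of the letters and not a binding site, and the missing matches say only that these letters are not in these windows. The windows of Trim30a and of Trim30d are shown because they share the match and differ little around it, with the match in capitals, all on the minus strand and printed 5′ to 3′:
Trim30a, first window, chr7:104465144-104465443: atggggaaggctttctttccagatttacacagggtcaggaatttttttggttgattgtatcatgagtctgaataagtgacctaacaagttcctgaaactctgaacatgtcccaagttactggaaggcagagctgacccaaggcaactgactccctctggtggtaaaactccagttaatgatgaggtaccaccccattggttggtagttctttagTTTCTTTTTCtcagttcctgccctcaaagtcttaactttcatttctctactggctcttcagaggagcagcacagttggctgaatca
Trim30a, second window, chr7:104446076-104446375: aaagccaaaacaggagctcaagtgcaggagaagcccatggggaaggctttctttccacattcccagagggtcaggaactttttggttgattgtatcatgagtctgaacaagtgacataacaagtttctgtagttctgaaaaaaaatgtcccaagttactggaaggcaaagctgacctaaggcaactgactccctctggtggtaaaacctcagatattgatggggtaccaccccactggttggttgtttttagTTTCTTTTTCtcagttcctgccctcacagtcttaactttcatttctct
Trim30d, chr7:104507800-104508099: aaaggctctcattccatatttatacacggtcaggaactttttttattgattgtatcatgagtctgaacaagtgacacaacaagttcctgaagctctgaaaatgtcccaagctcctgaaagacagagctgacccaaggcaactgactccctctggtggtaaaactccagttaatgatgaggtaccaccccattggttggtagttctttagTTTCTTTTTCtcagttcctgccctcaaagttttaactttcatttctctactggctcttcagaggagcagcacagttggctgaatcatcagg
The match begins 36 bases before the first start site of Trim30a and 2 bases after the second, and it reads TTTCTTTTTC, the reverse complement of the searched pattern. The Trim30d window was identical to the first Trim30a window at 93.6% of 295 aligned bases, and the second Trim30a window at 91.5% of 260 aligned bases. Trim30c matched it at 86.4% of 191 aligned bases and Trim30b at 57.1% of 266 aligned bases, and neither held the motif.

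Dtx3l, a ubiquitin ligase, and Parp9, a member of the PARP family, form a complex in cells. Their genes and Parp14 are 3 consecutive protein-coding genes on chromosome 16. Parp9 read 8.94, 8.64 and 8.54 on the TLR4-/- I/R arrays, against 7.75, 7.53 and 7.91 on the TLR4-/- sham arrays. Its wild-type signal was 8.31, 8.73, 8.60 and 8.90 on the I/R arrays, against 8.19, 7.84, 7.94 and 7.79 on the sham arrays. The groups did not overlap, although wild-type I/R array A lay close to wild-type sham array A. Parp9 rose by 0.97 ± 0.16 (1.97-fold, limma adjusted p = 0.000975) in TLR4-/- and by 0.70 ± 0.14 (1.62-fold, limma adjusted p = 0.00384) in wild type.

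Dtx3l read 8.77, 8.22 and 8.23 on the TLR4-/- I/R arrays, against 8.01, 7.87 and 8.01 on the TLR4-/- sham arrays. In wild type it read 8.18, 8.61, 8.40 and 8.38 on the I/R arrays, against 8.01, 8.10, 8.10 and 7.89 on the sham arrays. Each I/R array was above each sham array of its genotype, by little except on TLR4-/- I/R array B and wild-type I/R array B. The difference was 0.45 ± 0.15 (95% interval 0.13 to 0.76, limma adjusted p = 0.081) in TLR4-/- and 0.37 ± 0.13 (0.09 to 0.64, limma adjusted p = 0.0894) in wild type, so neither passed. In wild type it passed when TLR4-/- I/R array B was left out of the shared estimate of spread (adjusted p = 0.0355).

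Parp14, which has macrodomains that bind ADP-ribose and is known for its part in macrophage cytokine responses, read 8.61, 8.27 and 8.10 on the TLR4-/- I/R arrays, against 7.64, 7.14 and 7.61 on the TLR4-/- sham arrays. The wild-type readings were 7.96, 8.25, 8.46 and 8.47 on the I/R arrays, against 7.59, 7.48, 7.86 and 7.40 on the sham arrays. All I/R arrays lay above the sham arrays of their genotype. Parp14 rose by 0.86 ± 0.18 (1.82-fold, limma adjusted p = 0.00608) in TLR4-/- and by 0.71 ± 0.16 (1.63-fold, limma adjusted p = 0.00754) in wild type.

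Parp12, a zinc-finger member of the family with antiviral activity, read 9.50, 9.26 and 9.31 on the TLR4-/- I/R arrays, against 7.72, 8.34 and 8.44 on the TLR4-/- sham arrays. Its wild-type signal was 8.66, 8.93, 9.06 and 9.32 on the I/R arrays, against 8.18, 8.55, 8.33 and 8.35 on the sham arrays. The gap was wide in TLR4-/- and narrow in wild type, where I/R array A and sham array B nearly met. Parp12 rose by 1.19 ± 0.19 (2.28-fold, limma adjusted p = 0.000526) in TLR4-/- and by 0.64 ± 0.16 (1.56-fold, limma adjusted p = 0.0172) in wild type. The wild-type call was lost without I/R array C (0.61, adjusted p = 0.0518) and without I/R array D (0.53, adjusted p = 0.0707).

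Parp10, a mono-ADP-ribosyltransferase was the gene of the 10 whose I/R and sham arrays overlapped in both genotypes. It read 5.53, 6.20 and 6.01 on the TLR4-/- I/R arrays, against 5.84, 6.14 and 5.63 on the TLR4-/- sham arrays. In wild type it read 5.70, 5.37, 5.84 and 5.73 on the I/R arrays, against 5.67, 5.94, 5.72 and 5.86 on the sham arrays. No array group stood apart from the others. The difference was 0.05 ± 0.18 (95% interval -0.33 to 0.42, limma adjusted p = 0.934) in TLR4-/- and -0.14 ± 0.15 (-0.46 to 0.18, limma adjusted p = 0.642) in wild type, and in TLR4-/- its sign turned when I/R array C (-0.10), I/R array D (-0.004) or sham array D (-0.07) was left out.

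**Figure D2:**
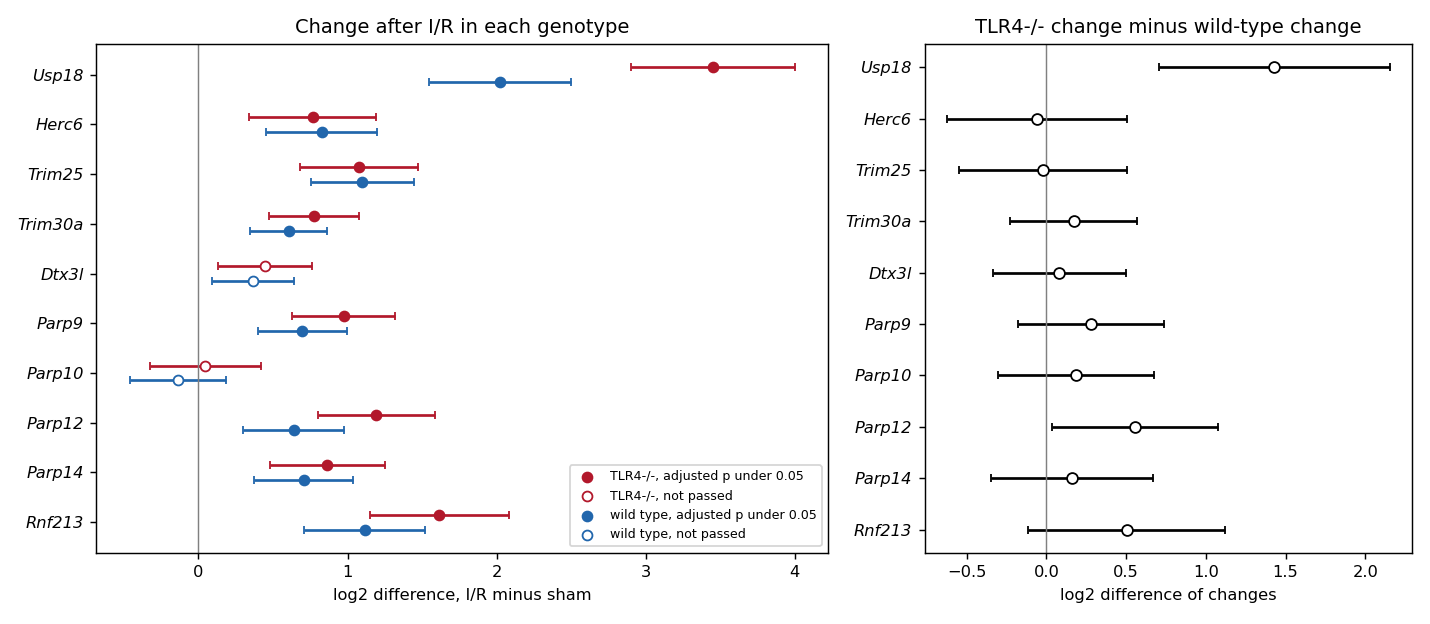
Change after I/R (I/R minus sham, log2, horizontal axis) of each of the 10 genes in TLR4-/- and in wild type, with 95% intervals from limma as bars and filled points where the test was passed; the right panel gives the TLR4-/- change minus the wild-type change. Usp18 stands farthest from 0 at 3.45 and 2.02, and the left-panel intervals of Parp10 include 0.

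The TLR4-/- change minus the wild-type change asks whether the response differed between the genotypes. It was positive for 8 of the 10 genes, with a median of 0.18, but none of the 10 passed. Over all genes it was positive for 10647 of 19938, with a median of 0.02. No gene of the array passed either in limma (0% called), and 762 of 19938 (3.82%) had an unadjusted p under 0.05, among them 2 of the 10 genes. The first was Usp18, at 1.43 ± 0.34 (95% interval 0.70 to 2.16, unadjusted p = 0.000708, limma adjusted p = 0.616), and the second Parp12, at 0.55 ± 0.25 (0.03 to 1.07, unadjusted p = 0.0383, limma adjusted p = 1). Without TLR4-/- sham array A the Parp12 difference was 0.33. Rnf213 had a difference of 0.50 with an interval of -0.11 to 1.12 on its brighter row, against -0.18 on its second row and 0.16 with the mean of both, so its sign depended on the row. For Trim25 the difference was -0.02 with an interval of -0.53 to 0.51, and for Herc6 it was -0.06 with an interval of -0.63 to 0.51. A missed threshold does not show that the genotypes responded alike.

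After sham surgery Usp18 was the gene of the 10 whose genotypes did not overlap. Every TLR4-/- sham array lay below every wild-type sham array, which held for 1.85% of all genes, while TLR4-/- lay wholly above wild type for 3.65% of all genes and for none of the 10. TLR4-/- minus wild type was -0.97 ± 0.24 (95% interval -1.49 to -0.46, unadjusted p = 0.000984), and it did not pass over all genes (limma adjusted p = 0.734). Over 22 alternative settings the difference ran from -1.08 to -0.858. Its limma adjusted p ran from 0.0532 to 0.999, so it passed in none of them and depended strongly on the setting. Of the 10 genes 8 were lower and 2 higher in mean in TLR4-/- than in wild type after sham surgery. Among all genes 10645 of 19938 were higher. None of the 10 passed, with 1 of 19938 genes called (0.00502%) and 1045 (5.24%) at an unadjusted p under 0.05.

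After I/R the genotypes overlapped for all 10 genes, whereas 6.13% of all genes lay wholly above wild type in TLR4-/- and 3.2% wholly below. The mean was higher in TLR4-/- than in wild type for 9 of the 10, against 11143 of 19938 genes. For Herc6 (0.009), Dtx3l (0.015) and Parp14 (0.040) the difference was near 0, and it turned negative with each array centred on its median. None of the 10 passed, nor did any have an unadjusted p under 0.05. Among all genes 1689 (8.47%) reached that unadjusted level and 4 were called (0.0201%). The difference was 0.46 for Usp18 (limma adjusted p = 0.625) and 0.37 for Parp12 (limma adjusted p = 0.59). For Usp18 it rested largely on wild-type I/R array A, and was 0.16 without it, when the difference between the changes was 1.13 (limma adjusted p = 0.541). The genotype comparisons share their arrays with the I/R comparisons, so they are not separate evidence.

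By group mean, 7 of the 10 genes stood in a single order, with TLR4-/- I/R highest, then wild-type I/R, then wild-type sham, then TLR4-/- sham. In 9 of the 10 both I/R means were above both sham means. The neighbours within each surgery did not pass the test in limma. The order of the 7 restates the signs of the differences given above, and its share over all genes was not counted. Some steps were near 0, as for Dtx3l after I/R (0.015). On its second row Rnf213 was higher in TLR4-/- than in wild type after sham surgery (0.43). The order of Herc6 had the sham groups turned round, that of Trim25 the I/R groups, and Parp10 had wild-type I/R lowest.

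Within their groups, some arrays read lowest or highest for most of the 10 genes. Wild-type I/R array A was lowest of its group in 9 of the 10 genes and highest in none, and array D was highest in 7. Among the TLR4-/- I/R arrays, B was highest in 7. These counts were not made over all genes, so whether they are particular to the 10 was not tested. The mean over the 10 genes, after each was centred on its own mean over 14 arrays, was 0.68, 0.49 and 0.47 on TLR4-/- I/R arrays B, C and D, against -0.57, -0.59 and -0.56 on TLR4-/- sham arrays A, B and D. In wild type it was 0.04, 0.41, 0.52 and 0.66 on I/R arrays A to D, against -0.43, -0.41, -0.32 and -0.38 on sham arrays A to D. Wild-type I/R array A thus sat between the sham arrays and the other I/R arrays, and no cause of this was tested.

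**Figure D3:**
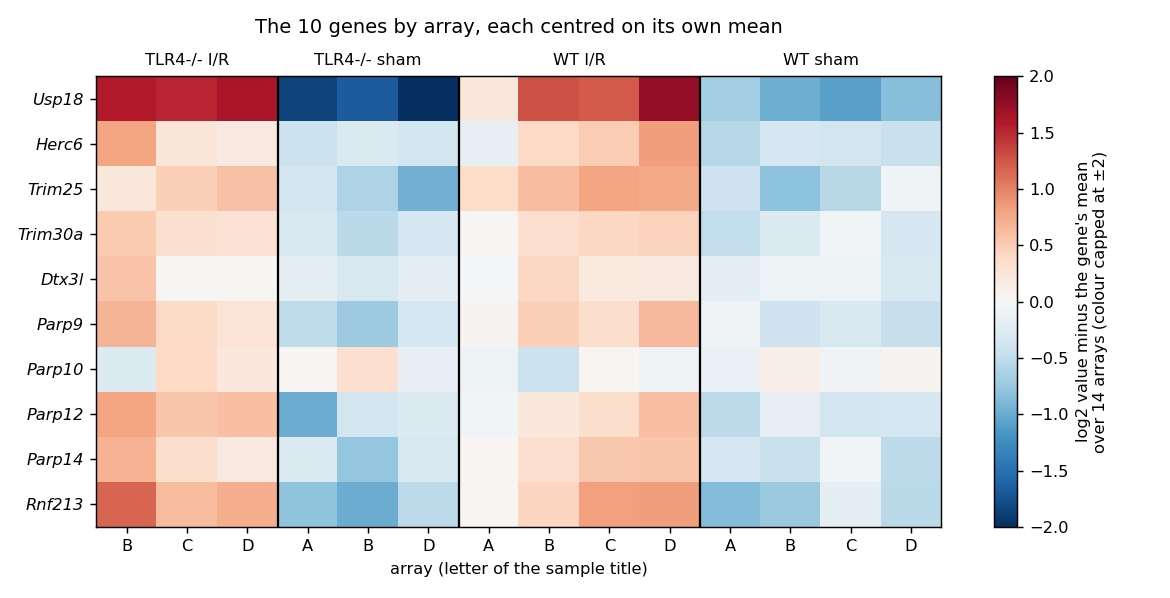
Each gene's log2 signal minus its own mean over the 14 arrays as colour from blue (low) to red (high), capped at ±2, with genes as rows and arrays as columns in their groups. The I/R arrays are redder than the sham arrays of their genotype for all genes but Parp10, and wild-type I/R array A is the lowest I/R array of its group for 9 of the 10 genes.

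The profile over 14 arrays most like the mean profile of the 10 genes, by root mean square difference of centred log2 values, was that of Gnptab (0.140), an enzyme of lysosomal sorting. Ddx58, which encodes the viral RNA sensor RIG-I, followed at 0.143, then Nudt5 (0.169), Cmpk2 (0.181), a mitochondrial nucleotide kinase induced by interferon, and Tmem106a (0.182). Of the 10 genes themselves, Parp9 was nearest to their common profile (0.142) and Usp18 (0.929) and Parp10 (0.567) were farthest. Since the profile was built from the 10, their own distances are a description only.

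The counts for other members of these enzyme families are a description, to be read beside the 5.04% of all genes that rose and the 3.13% that fell in TLR4-/-, and the 6.15% that rose and the 3.63% that fell in wild type. Of 11 other PARP genes, 1 rose and 1 fell in TLR4-/-, with a median of -0.09, and 2 rose and 2 fell in wild type, with a median of 0.01. Zc3hav1, the zinc-finger antiviral protein of the PARP family, rose by 0.45 (limma adjusted p = 0.025) in TLR4-/- and by 0.51 (limma adjusted p = 0.00301) in wild type. Parp8 fell by 0.52 (limma adjusted p = 0.0422) in TLR4-/- and fell by 0.44 (limma adjusted p = 0.041) in wild type. In wild type Parp1, the DNA-damage enzyme, rose by 0.39 (limma adjusted p = 0.0321) and Parp6 fell by 0.66 (limma adjusted p = 0.00188). Of 5 enzymes that remove ADP-ribose, none was called in TLR4-/- in limma, where none had an unadjusted p under 0.05 either, and Macrod2 fell by 0.38 (limma adjusted p = 0.022) in wild type.

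Of 56 other TRIM genes, 2 rose and 3 fell in TLR4-/-, and 2 rose and 1 fell in wild type. Trim59 had the largest change, 2.48 (5.56-fold, limma adjusted p = 5.52e-05) in TLR4-/- and 2.11 (4.31-fold, limma adjusted p = 4.67e-05) in wild type. Trim37 rose in both as well, by 0.73 (limma adjusted p = 0.0286) in TLR4-/- and by 1.01 (limma adjusted p = 0.000828) in wild type. In TLR4-/- Trim36 (-0.67, limma adjusted p = 0.00908), Trim41 (-0.72, limma adjusted p = 0.0157) and 1 further TRIM gene fell, and in wild type Trim65 fell (-0.57, limma adjusted p = 0.006). Of 48 other USP genes, 1 rose and 4 fell in TLR4-/-, and 1 rose and 1 fell in wild type. The gene that rose was Usp14, a protease bound to the proteasome, by 0.50 (limma adjusted p = 0.0119) in TLR4-/- and 0.60 (limma adjusted p = 0.000702) in wild type. Those that fell in TLR4-/- included Usp24 (-0.74, limma adjusted p = 0.0142), Usp33 (-0.45, limma adjusted p = 0.0389) and Usp2 (-0.44, limma adjusted p = 0.0424), and in wild type Usp42 fell (-0.46, limma adjusted p = 0.0171).

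Of 76 other RNF genes, 1 rose and 3 fell in TLR4-/-, and 1 rose and 5 fell in wild type, with Rnf149 the one that rose, by 0.85 (limma adjusted p = 0.000582) in TLR4-/- and 0.59 (limma adjusted p = 0.00301) in wild type. Rnf216 changed by -0.64 in TLR4-/- (limma adjusted p = 0.0018) and by -0.56 in wild type (limma adjusted p = 0.00123), and Rnf167 by -0.90 in TLR4-/- (limma adjusted p = 0.0118) and by -0.79 in wild type (limma adjusted p = 0.00918). Rnf166 fell in TLR4-/- (-0.48, limma adjusted p = 0.0247), and Rnf220 (-0.38, limma adjusted p = 0.0439) and 2 further RNF genes fell in wild type. Of 8 other HERC and Deltex genes, Herc2 fell in TLR4-/- (-0.59, limma adjusted p = 0.0408) and Dtx3 fell in wild type (-0.56, limma adjusted p = 0.0347).

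Upstream of the 10 genes, 1 of 6 receptor and signalling genes (Ifnar1, Ifnar2, Jak1, Tyk2, Stat2 and Irf9) rose in each genotype and none fell. Stat2 read 8.29, 8.07 and 8.33 on the TLR4-/- I/R arrays, against 6.48, 6.54 and 7.29 on the TLR4-/- sham arrays. On the wild-type arrays it read 7.74, 8.13, 8.34 and 8.51 after I/R, against 7.57, 6.81, 7.14 and 6.99 after sham surgery. The groups did not overlap, and Stat2 rose by 1.45 (2.74-fold, limma adjusted p = 0.000646) in TLR4-/- and by 1.05 (2.08-fold, limma adjusted p = 0.00229) in wild type. Ifnar2, the chain that USP18 binds, was at -0.16 in TLR4-/- and -0.15 in wild type, and Irf9 at 0.42 and 0.40, none of them passing. Of 5 genes of the RIG-I pathway, in which TRIM25 acts on RIG-I itself, 3 rose in each genotype and none fell. They were Dhx58 (2.13 in TLR4-/- and 1.33 in wild type), Ifih1 (1.34 in TLR4-/- and 0.85 in wild type) and Ddx58 (1.12 in TLR4-/- and 0.69 in wild type). Mavs and Rnf135 lay below 0 without passing, the lower of them at -0.38 in TLR4-/- and -0.255 in wild type. In TLR4-/- all 5 had an unadjusted p under 0.05 in limma. Among all genes 5.04% rose in TLR4-/- and 6.15% in wild type.

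**Figure D4:**
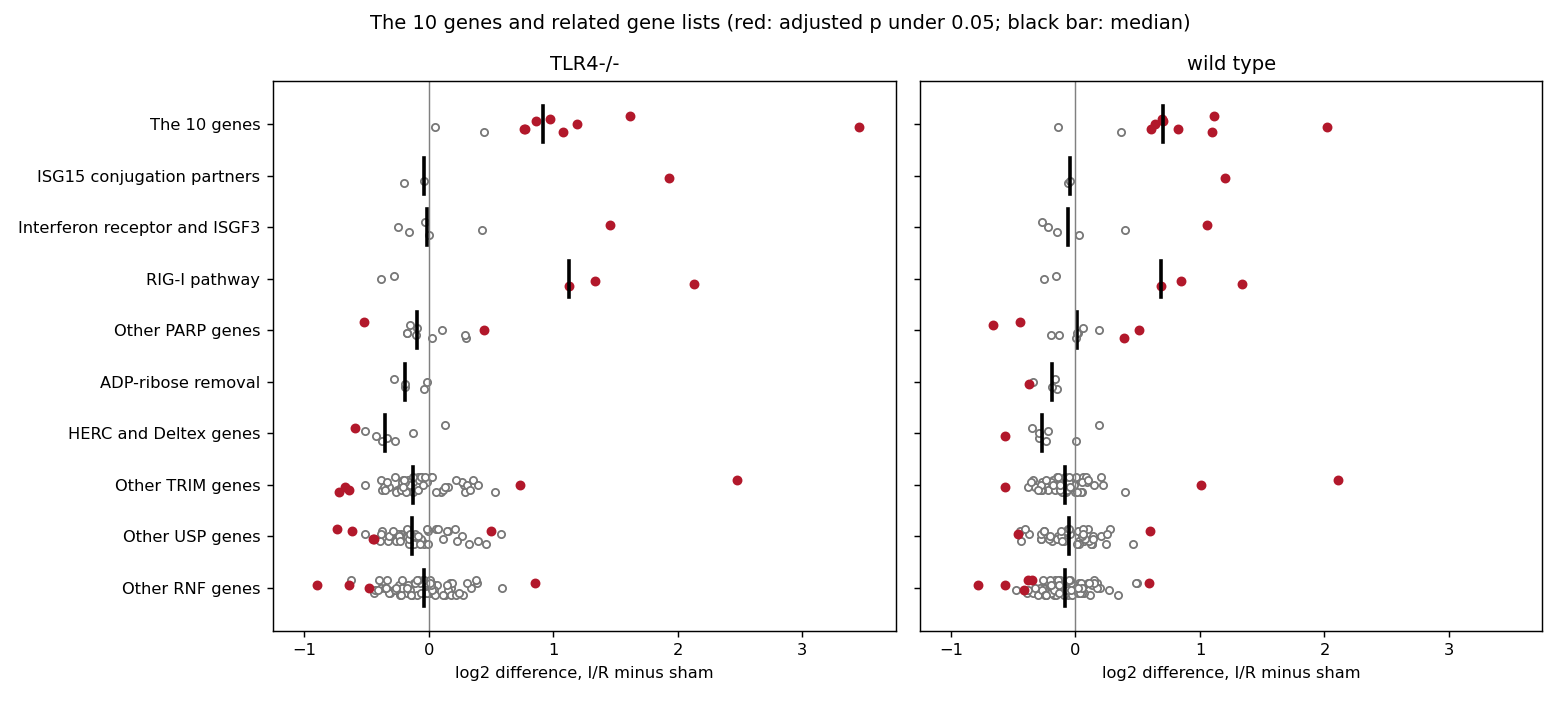
Change after I/R (log2, horizontal axis) of every gene in each list, 1 panel per genotype; each point is a gene, red points passed the test and black bars are medians. The median of the 10 genes is 0.92 in TLR4-/- and 0.70 in wild type, and that of the other PARP genes is -0.09 in TLR4-/- and 0.01 in wild type.

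Markers of other cells moved in the same comparison. The mean of 8 monocyte markers lay between 6.16 and 6.30 on the TLR4-/- I/R arrays, against 4.43 and 4.73 on the TLR4-/- sham arrays, and 5 of the 8 rose. The wild-type mean lay between 6.20 and 6.77 on the I/R arrays, against 4.62 and 4.89 on the sham arrays, and 7 of the 8 rose. The mean of 9 microglial markers lay between 10.75 and 10.90 on the TLR4-/- I/R arrays, against 11.14 and 11.24 on the TLR4-/- sham arrays, and 4 of the 9 fell. In wild type it lay between 10.72 and 10.94 on the I/R arrays, against 11.13 and 11.18 on the sham arrays, and 6 of the 9 fell. Ccr2, the monocyte chemokine receptor, ran from 5.48 to 5.69 on the TLR4-/- I/R arrays, against 5.49 to 5.98 on the TLR4-/- sham arrays. It ran from 6.13 to 6.69 on the wild-type I/R arrays, against 5.80 to 6.05 on the wild-type sham arrays. Of the neutrophil markers 5 of 8, of the T and NK cell markers 5 of 6 and of the B cell markers 2 of 3 stayed below the background percentile on every array. Single markers of other lists passed as well. In TLR4-/- the neutrophil marker Csf3r (-0.55), the astrocyte marker Slc1a3 (-0.75) and the endothelial marker Pecam1 (-1.09) fell. In wild type Slc1a3 (-0.72) and Pecam1 (-0.94) fell, while the neutrophil marker Cxcr2 (0.54), below the background percentile on every array, and the endothelial markers Cdh5 (0.67) and Flt1 (0.42) rose. That left 1 of 8 neutrophil, 1 of 6 astrocyte and 1 of 5 endothelial markers called in TLR4-/-, and 1 of 8, 1 of 6 and 3 of 5 in wild type. The part of monocytes or of these other cells in the changes of the 10 genes was not tested.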

How the data were processed

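Deposited values were log2 signals that the authors made with RMA in the oligo package, per the submitters' processing notes. Neither version, probe position nor detection call was given. The 35556 rows held 21789 with 1 gene symbol, 1621 with several and 12146 unnamed here. The highest-mean row stood for each of 19938 genes. A linear model with 4 group means was fitted to all 14 arrays (limma 3.58.1, lmFit then eBayes, R 4.3.3), with Benjamini-Hochberg adjustment over all genes and calls at an adjusted p under 0.05. The script was tested on simulated data. Comparisons were I/R against sham in each genotype, the difference of these changes, and the genotypes after each surgery. Alternatives were array centring, array weights, trend and robust variance, the compared groups alone, dim genes left out, the mean of a gene's rows, the replicate letter as a block, arrays left out singly and 2 arrays left out together. Named were all 10 genes, the called genes of each list of relatives up to 4 by smallest p, and the 5 non-members with the nearest profile. The members and lists were chosen with earlier results of these data known. The number of arrays limits precision.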

Additional observations from a re-analysis of the deposited data

How the results depend on the processing

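Of the 16 changes after I/R that passed in the 10 genes, 14 passed in each of the 22 alternatives and none changed sign. The exceptions were Herc6 in TLR4-/- and Parp12 in wild type, as given above. Leaving out 1 array gave 7 to 8 of the 10 genes in TLR4-/- and 7 to 9 in wild type. Over all genes it gave 970 to 1888 called genes in TLR4-/- and 1344 to 2049 in wild type. The lowest count, 970, came without TLR4-/- sham array A, and it was 1071 without TLR4-/- I/R array C. Called genes numbered 0 to 1 for the difference of changes, 0 to 10 for the genotypes after sham and 0 to 5 after I/R. Over all genes the sham genotype comparison called 0 genes with the compared groups alone, 2 with trend and robust variance, 2 with array weights, 2 with the replicate block and 10 without TLR4-/- I/R D and wild-type sham C. The I/R genotype comparison called 0 with the compared groups alone, 7 with array weights, 1 with dim genes left out, 0 with the replicate block and 0 without those 2 arrays.

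Samples that share a letter correlated in their deviations from group means at r from -0.10 to 0.28 (18 pairs), and other pairs at -0.26 to 0.24, so the letters were not taken to pair the samples. With the replicate block 7 of the 10 genes rose in TLR4-/- and 8 in wild type, Herc6 in TLR4-/- having 0.67 (adjusted p = 0.0572). Among all genes 1016 rose in TLR4-/- and 1300 in wild type with the block. The sign turned only for differences that did not pass. With the replicate block these were Parp10 in TLR4-/- after I/R (-0.017) and the genotype differences after I/R of Herc6 (-0.076) and Dtx3l (-0.004). Without both arrays they were Parp10 (-0.004) and the difference of changes of Herc6 (0.034). With the mean of its rows, Rnf213 differed by 0.12 between the sham groups. After centring, Herc6 (-0.04), Dtx3l (-0.035) and Parp14 (-0.010) turned after I/R, and with array weights Herc6 (-0.020) and Dtx3l (-0.029). Leaving out single arrays, the change of Parp10 in TLR4-/- ran from -0.10 to 0.24. The difference of changes ran from -0.18 to 0.11 for Trim25, -0.25 to 0.085 for Herc6, -0.10 to 0.17 for Dtx3l and -0.005 to 0.27 for Parp14. The sham genotype difference ran from -0.32 to 0.037 for Parp12, -0.064 to 0.19 for Parp10 and -0.20 to 0.045 for Parp14. The I/R genotype difference ran from -0.18 to 0.15 for Herc6, -0.029 to 0.12 for Trim30a, -0.17 to 0.11 for Dtx3l, -0.045 to 0.16 for Parp9 and -0.10 to 0.15 for Parp14. The cause of these shifts was not tested.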

Other observations

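Border-associated macrophage markers, a list of 6 genes, did not pass the test in any comparison in limma. In TLR4-/- their mean lay between 7.05 and 7.73 on the I/R arrays and between 6.93 and 7.66 on the sham arrays. In wild type it lay between 7.53 and 8.23 on the I/R arrays and between 7.69 and 7.88 on the sham arrays. After I/R all 6 had a lower mean in TLR4-/- than in wild type, with a median difference of -0.52, and 3 of the 6 had an unadjusted p under 0.05, against 8.47% of all genes. After sham surgery all 6 were likewise lower in mean in TLR4-/-, with a median difference of -0.34, and 2 of the 6 had an unadjusted p under 0.05, against 5.24% of all genes. Among all 19938 genes, 11143 were higher in mean in TLR4-/- after I/R and 10645 after sham surgery. The 6 are markers of a single cell type, so they are not 6 separate observations.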
